A study of Homo sapiens with 30 samples.

Results

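Oleic acid was set against vehicle in LX2 cells exposed to betacellulin (BTC). LX2 is an established human cell line with the features of activated hepatic stellate cells, the liver cells that lay down collagen in fibrosis. The comparison used 10 of the 30 libraries of the series, taken by the treatment in their labels, with 5 libraries of cells given oleic acid and BTC (OLA+BTC) and 5 of cells given vehicle and BTC (Veh+BTC). Each of 5 experiments supplied 1 library to each group, so every OLA+BTC library has a Veh+BTC library of its own experiment. OLA+BTC cells received oleic acid, an omega-9 fatty acid of 18 carbons with 1 double bond, at 50 µM on serum albumin at 20 µM, and BTC at 20 ng/ml. Veh+BTC cells received BTC at the same concentration for the same 72 hours and no fatty acid, and the labels do not say whether their vehicle held albumin. Medium with 1% fetal calf serum was common to all 6 groups. The labels give 2 fatty acid cycles of 48 hours during growth, one protocol line gives 96 hours of fatty acid ahead of BTC, and the treatment line lists oleic acid together with BTC, so the exact overlap of fatty acid and BTC cannot be settled from them. Cells given oleic acid without BTC (OLA+Veh), vehicle without BTC (Veh+Veh), and docosahexaenoic acid with BTC (DHA+BTC) were used where they bear on this comparison. Nothing in the labels says whether the 5 experiments came from separate thaws or passages, so the p-values cover only the spread among these cultures of a single line.

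Long-chain fatty acids entering a cell are burned in mitochondria and peroxisomes or stored as triglyceride in lipid droplets, and they activate PPAR nuclear receptors, which raise genes such as PLIN2, ANGPTL4, PDK4 and CPT1A. Fatty acids can also lower the processing of SREBP factors, which drive cholesterol and fatty acid synthesis genes, an action best known for polyunsaturated ones. Quiescent stellate cells hold retinyl esters in lipid droplets and lose them when they turn into collagen-producing myofibroblasts. BTC is a ligand of the receptors EGFR and ERBB4 and signals through the ERK kinase cascade.

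Libraries of the 2 groups held 3236415 to 5425009 reads each, and values are counts from the 3′ ends of transcripts scaled to 1000000 reads per library (CPM). The stellate and fibroblast markers summed to 2811, 2686, 2901, 1871 and 5359 CPM in OLA+BTC of experiments 1 to 5, against 2770, 3326, 2970, 1961 and 3780 CPM in Veh+BTC libraries. COL1A1, a chain of type I collagen, ranged from 315 to 2257 CPM over all 10 libraries, while albumin (ALB) and 8 other hepatocyte markers of 18 were at 0 in every one. OLA+BTC of experiment 2 held more RNA of other cell types than the other 9 libraries, which held lower levels of most of the same genes. Its 24 leukocyte markers summed to 1893 CPM, against 64.1 to 166 CPM in the other 9, and 17 of the 24 were highest there. Among them were the integrin chain ITGB2 at 1533 CPM, the leukocyte phosphatase PTPRC at 27.8 CPM and the macrophage receptor CSF1R at 28.4 CPM, against at most 98.1, 2.0 and 3.94 CPM elsewhere. Elsewhere in the series the highest levels reached 424 CPM for ITGB2 and 130.9 CPM for FABP4, both in DHA+BTC of experiment 5. Erythroid and platelet markers summed to 1873 CPM there and 25.7 to 125 CPM in the others, most of it from the globin gene HBD, whose reads may be shared with near-identical globin copies. Intestinal epithelium markers summed to 72.6 CPM in OLA+BTC of experiment 2 and to 1.13 to 19.4 CPM in the others, and all 13 were highest in that library. The 19.4 CPM was in OLA+BTC of experiment 1, which stays in the results without experiment 2, and the next highest sum was 3.65 CPM. In OLA+BTC of experiment 2, 132 genes lay at least 4-fold above all 9 others on the CPM + 1 scale, led by FABP6, DYNLT5, ITGB2, HBD, HBB, FABP5 and FABP4, while 11 did in Veh+BTC of experiment 3, 1 in OLA+BTC of experiment 1 and 0 in each of the rest. Counts of called genes, and the values of the main lipid genes for OLA+BTC against Veh+BTC, are therefore given with and without experiment 2.

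**Figure D1:**
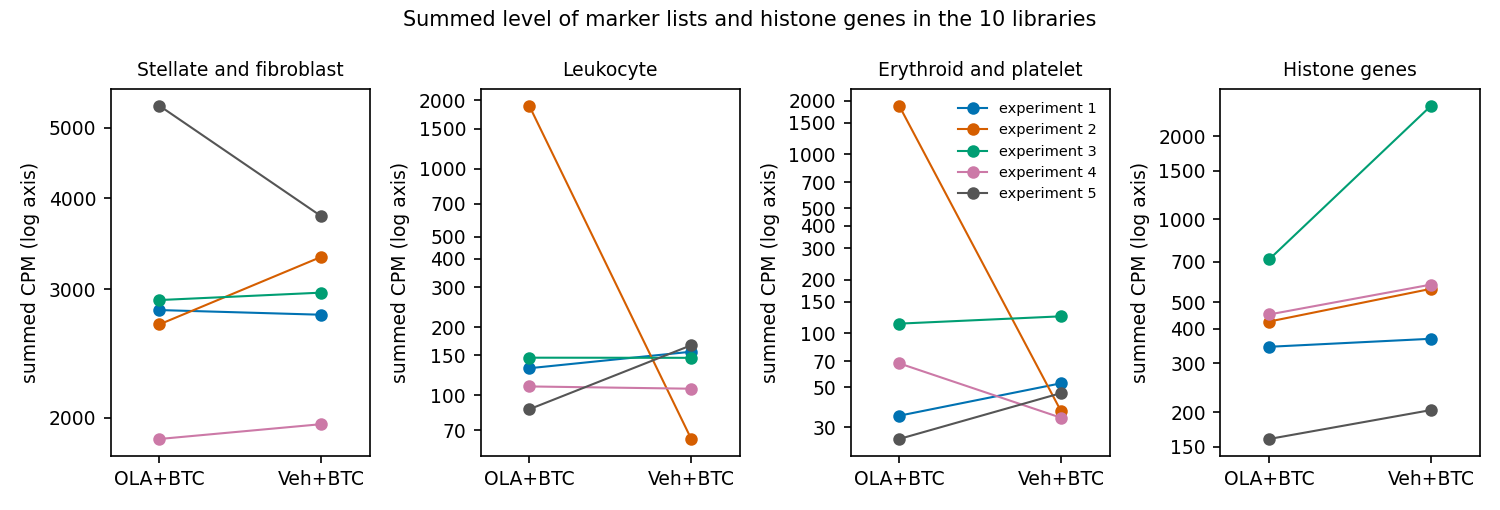
Summed CPM (log axis) of the stellate and fibroblast, leukocyte, and erythroid and platelet marker lists and of the replication-dependent histone genes, with OLA+BTC at the left and Veh+BTC at the right of each panel and a line joining the libraries of 1 experiment. OLA+BTC of experiment 2 stands at 1893 CPM for leukocyte and 1873 CPM for erythroid markers, and Veh+BTC of experiment 3 at 2578 CPM for histone genes.

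Apart from that library, 4 of the 18 library measures differed in the same direction in all 5 experiments. The mitochondrial share of reads was 2.52 ± 0.384% in OLA+BTC and 3.14 ± 0.855% in Veh+BTC (SD, n = 5 each), lower in OLA+BTC in 5 of 5 experiments (exact sign-flip permutation test, two-sided, p = 0.0625, adjusted p = 0.281). Replication-dependent histone genes summed to 419 ± 201 CPM in OLA+BTC and 858 ± 974 CPM in Veh+BTC, again lower in 5 of 5, with Veh+BTC of experiment 3 alone at 2578 CPM. The muscle marker sum was lower in 5 of 5 experiments and the epithelial marker sum higher in 5 of 5, with the same exact p. Nearly all of the muscle sum came from TNNT1, at 105 to 396 CPM, and most of the epithelial sum from KRT18, KRT10 and KRT8. Of the 11 epithelial markers tested singly, 0 were higher in all 5 experiments and 1 was lower in all 5. With 5 pairs this test cannot give a p under 0.0625, so none of the 18 measures could pass 0.05. Other marker lists, in OLA+BTC of experiment 2 and then in the range of the other 9 libraries, summed to 21.6 and 3.14 to 17.1 CPM for hepatocyte, 77.6 and 35.6 to 75.7 CPM for endothelial, and 318 and 83.3 to 298 CPM for neural genes. They summed to 35.8 and 5.71 to 48.3 CPM for melanocytic, 138 and 69.4 to 117 CPM for mammary, and 16.7 and 1.35 to 7.98 CPM for germ and pluripotent genes. Most of the neural sum was MBP, at 297 CPM in OLA+BTC of experiment 2 and 78.3 to 284 CPM in the others.

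No gene passed the test for a difference between OLA+BTC and Veh+BTC. Of 15137 genes tested with limma on log2(CPM + 1), 0 (0.0%) had an adjusted p under 0.05 by Benjamini-Hochberg adjustment, and the smallest adjusted p was 0.695. At an unadjusted p under 0.05 there were 1044 genes (6.9%), 627 (4.14%) higher and 417 (2.75%) lower in OLA+BTC. Without experiment 2, 0 genes passed, the smallest adjusted p was 0.358, and 1359 genes (8.98%) had an unadjusted p under 0.05, 786 (5.19%) higher and 573 (3.79%) lower. The count tests edgeR and DESeq2 on the recovered reads also called 0 genes over all experiments, with 1040 and 1302 genes at an unadjusted p under 0.05. That count depended on the fit. In limma it was 2169 with only these 2 groups in the fit (smallest adjusted p 0.193), 712 with library weights and 242 with no experiment term. Without experiment 2 the first 2 of these fits gave 2550 and 2527 genes, with smallest adjusted p of 0.0697 and 0.0534. Without experiment 2, edgeR called 0 genes, DESeq2 called 1, and leaving out Veh+BTC of experiment 4 as well gave 354 calls in limma, 269 higher and 85 lower. Missing the threshold does not make the groups alike. The 95% interval of the log2 difference had a median half-width of 0.64. For 65.4% of genes (49.1% without experiment 2) it lay within a 2-fold change in either direction. For the rest it reached past 2-fold, so changes of that size are not excluded there.

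Differences within experiments had little in common. Over the 15137 genes, the log2 differences of experiments 1, 3 and 5 correlated with each other at 0.26, 0.28 and 0.26, and every pair that held experiment 2 or 4 lay between −0.05 and 0.14 (Pearson, a description over genes that share libraries). Against the GC content of the last 500 transcript bases the differences had Spearman coefficients of −0.34, 0.01, −0.17, −0.19 and −0.26 in experiments 1 to 5 over 10048 genes. Without BTC the same coefficients, for OLA+Veh minus Veh+Veh, were 0.34, −0.13, 0.00, 0.18 and −0.30. After a GC correction, chosen after seeing these values, 0 genes passed, with 996 genes at an unadjusted p under 0.05 over all experiments and 1192 without experiment 2.

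PLIN2, the coat protein of lipid droplets that marks lipid loading in many cells, was higher in OLA+BTC in all 5 experiments. Its levels were 164, 475, 98.5, 149 and 150 CPM in OLA+BTC of experiments 1 to 5, against 122, 83.5, 58.5, 128 and 120 CPM in Veh+BTC. OLA+BTC of experiment 2, the library with leukocyte and erythroid RNA, was far above the rest. Those of experiments 1, 4 and 5 also lay above every Veh+BTC library, and that of experiment 3 lay within the Veh+BTC range. The log2 difference was 0.84 ± 0.28 (SE), a 1.79-fold higher level, with a 95% interval of 0.27 to 1.41, an unadjusted p of 0.0054 and an adjusted p of 0.695 (limma). Without experiment 2 it was 0.43, with an interval of −0.11 to 0.96. ANGPTL4, a secreted inhibitor of lipoprotein lipase and a classical PPAR target, was also higher in 5 of 5 experiments. It stood at 12.3, 30.9, 4.87, 16.5 and 22.7 CPM in OLA+BTC, against 11.1, 1.11, 2.96, 14.3 and 15.4 CPM in Veh+BTC. Experiment 2 again gave the widest gap, from both its high OLA+BTC and its low Veh+BTC library, and the log2 difference of 1.07 ± 0.45 (SE) became 0.36 (95% interval −0.44 to 1.15) without it. How much of either value came from the other RNA in OLA+BTC of experiment 2 was not tested. Over all genes, 1002 (6.62%) were higher in OLA+BTC in all 5 experiments and 974 (6.43%) lower.

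**Figure D2:**
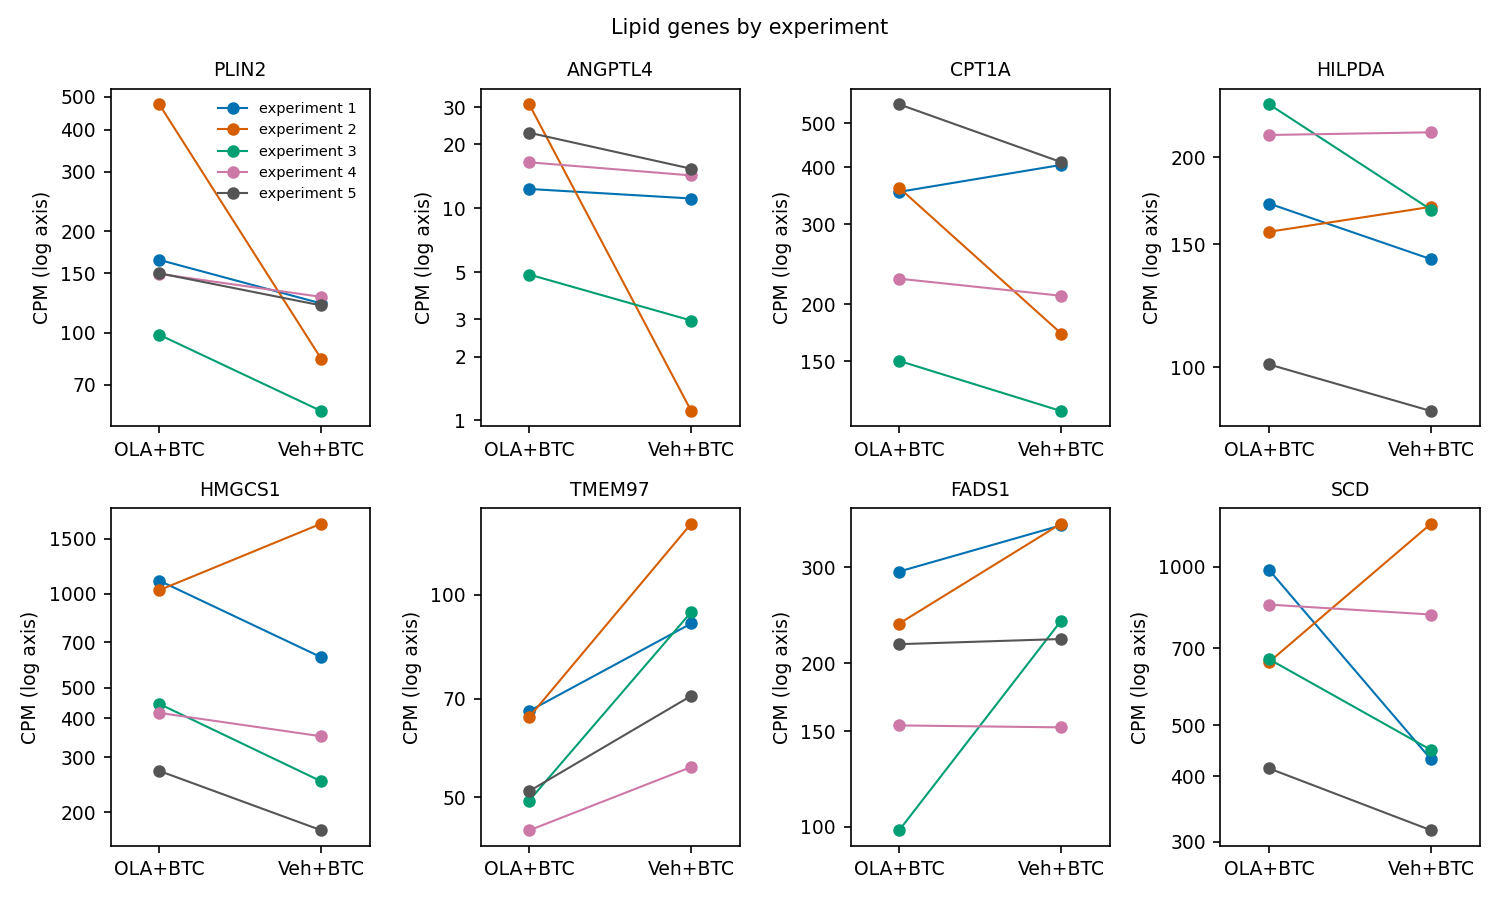
CPM (log axis) of 8 lipid genes in OLA+BTC (left) and Veh+BTC (right), a line joining the libraries of 1 experiment. PLIN2 and ANGPTL4 are higher in OLA+BTC in all 5 experiments and TMEM97 lower, while CPT1A, HILPDA, HMGCS1, FADS1 and SCD split; none passed the test.

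Other PPAR targets and fatty acid oxidation genes went in both directions. CPT1A, which carries long-chain fatty acids into mitochondria, was at 353, 361, 150, 228 and 550 CPM in OLA+BTC, against 405, 173, 117, 209 and 410 CPM in Veh+BTC, a log2 difference of 0.35 (95% interval −0.07 to 0.78), or 0.18 without experiment 2. PDK4, a kinase that spares glucose when fat is burned, was all but undetected, with 0 reads in 8 of the 10 libraries and at most 0.309 CPM, in OLA+BTC of experiment 2. A count of 3 reads corresponds to 0.553 to 0.927 CPM in these libraries. ACAA2, the last enzyme of the mitochondrial beta-oxidation spiral, was higher in 5 of 5 experiments, at 22.8 to 48.5 CPM in OLA+BTC and 12.8 to 20.1 CPM in Veh+BTC. Its log2 difference was 0.77 ± 0.26 (SE), or 0.66 without experiment 2. ETFA and ECI2, an electron acceptor subunit and an isomerase of the same pathway, were likewise higher in 5 of 5, with log2 differences of 0.73 and 0.54. Against them, ACADS, the short-chain acyl-CoA dehydrogenase, was lower in 5 of 5 (log2 difference −0.53). Of the 41 genes listed as PPAR targets or fatty acid oxidation genes 32 were tested, 0 passed, and their median log2 difference was 0.16, against 0.03 over all genes. At an unadjusted p under 0.05, 4 of the 32 were higher and 0 lower, against 4.14% and 2.75% of all genes, and without experiment 2, 4 were higher and 2 lower, against 5.19% and 3.79%.

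CD36 and FABP4, a fatty acid transporter and a fatty acid binding protein that macrophages also express, owed their higher OLA+BTC mean to a single library. CD36 was at 64.6 CPM in OLA+BTC of experiment 2 and at 1.13 to 5.62 CPM in the other 4, against 2.58 to 7.68 CPM in Veh+BTC. FABP4 was at 255 CPM there and at 5.86 to 16.3 CPM in the other 4, against 5.47 to 15.4 CPM in Veh+BTC. Their log2 differences were 0.42 and 0.92 over all experiments, and −0.52 and −0.15 without experiment 2.

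Lipid droplet and triglyceride genes gave no common direction. HILPDA, a droplet protein that inhibits lipolysis, was at 172, 156, 238, 215 and 101 CPM in OLA+BTC, against 143, 170, 168, 217 and 86.5 CPM in Veh+BTC, a log2 difference of 0.17 (95% interval −0.25 to 0.60), or 0.24 without experiment 2. G0S2, an inhibitor of the same lipase step, was higher in 5 of 5 experiments, at 68.2, 38.9, 12.9, 124 and 8.11 CPM in OLA+BTC, against 4.56, 12.0, 11.5, 119 and 4.98 CPM in Veh+BTC. Its range within each group exceeded its difference in all 5 experiments, and the log2 difference was 1.21 ± 0.67 (SE). AGPAT2, an acyltransferase of triglyceride synthesis, was lower in 5 of 5, at 85.3 to 200 CPM in OLA+BTC and 102 to 365 CPM in Veh+BTC (log2 difference −0.56 ± 0.22 SE). The lipases MGLL, PNPLA2 and PNPLA3 had log2 differences of −0.57, −0.41 and −0.63, each lower in 4 of 5 experiments. PLIN3, a more broadly expressed droplet coat protein, was at 599 to 1231 CPM in OLA+BTC and 559 to 1218 CPM in Veh+BTC. CIDEC, which fuses droplets, was at or under 0.285 CPM throughout, and PLIN1, PLIN4 and PLIN5 were each at 0 in 9 of the 10 libraries. Of 26 listed genes 19 were tested and 0 passed, with a median log2 difference of −0.14. At an unadjusted p under 0.05, 1 was higher and 3 lower, against 4.14% and 2.75% of all genes. Without experiment 2, 0 were higher and 4 lower, against 5.19% and 3.79% of all genes.

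Cholesterol genes included both directions as well. TMEM97, which is outside the fixed cholesterol list and had one of the 10 smallest p among lower genes, is a sterol-regulated membrane protein that modulates cholesterol traffic. It was at 67.2, 65.8, 49.4, 44.7 and 51.1 CPM in OLA+BTC, against 90.6, 128, 94.3, 55.5 and 70.8 CPM in Veh+BTC. Lower in 5 of 5, it had a log2 difference of −0.61 ± 0.17 (SE), a 95% interval of −0.96 to −0.26, an unadjusted p of 0.0013 and an adjusted p of 0.695 (limma), and −0.53 without experiment 2. The synthesis enzymes MVD, DHCR7 and FDPS were lower in 5 of 5, with log2 differences of −0.54, −0.38 and −0.57. HMGCS1, which makes the precursor of mevalonate, was at 1100, 1026, 444, 415 and 271 CPM in OLA+BTC, against 626, 1675, 251, 350 and 175 CPM in Veh+BTC, higher in every experiment but 2, with a log2 difference of 0.36 (95% interval −0.18 to 0.91), or 0.63 without experiment 2. INSIG1, the sterol sensor that retains SREBP in the endoplasmic reticulum, had a log2 difference of −0.22 (−0.60 to 0.16). Of 26 listed genes 24 were tested and 0 passed, and the median log2 difference was −0.09. Lower in 5 of 5 experiments were 4 of the 24 and higher in 5 of 5 were 0, against 6.43% and 6.62% of all genes. At an unadjusted p under 0.05, 1 of the 24 was higher and 0 lower, against 4.14% and 2.75% of all genes. Without experiment 2, 2 were higher and 2 lower, against 5.19% and 3.79% of all genes.

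Among the desaturases, SCD, which makes oleic acid from stearic acid, was at 986, 659, 667, 847 and 414 CPM in OLA+BTC, against 430, 1208, 448, 811 and 315 CPM in Veh+BTC. It was higher in OLA+BTC in every experiment but 2, with a log2 difference of 0.27 (95% interval −0.30 to 0.84), or 0.55 without experiment 2. FADS1, a desaturase of polyunsaturated fatty acids, was at 295, 236, 98.5, 154 and 217 CPM in OLA+BTC, against 358, 361, 239, 152 and 221 CPM in Veh+BTC. The largest gap was in experiment 3, experiments 4 and 5 were nearly level, and the log2 difference was −0.44 ± 0.16 (SE) with an unadjusted p of 0.0088 and an adjusted p of 0.695 (limma), or −0.39 without experiment 2. FADS2, its partner enzyme, differed by 0.07 (−0.67 to 0.81), a sign that turned under edgeR, DESeq2 and library weights. ACSL5, an acyl-CoA synthetase, and ELOVL1, an elongase, had log2 differences of 0.96 and −0.52, ACSL5 at 2.62 to 6.29 CPM in OLA+BTC and 0 to 4.28 CPM in Veh+BTC. In the 24 tested of 25 listed synthesis and desaturation genes the median was 0.05 and 0 passed. The 13 listed LXR targets and sterol efflux genes, 11 of them tested, had a median of −0.02 and 0 genes at an unadjusted p under 0.05.

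**Figure D3:**
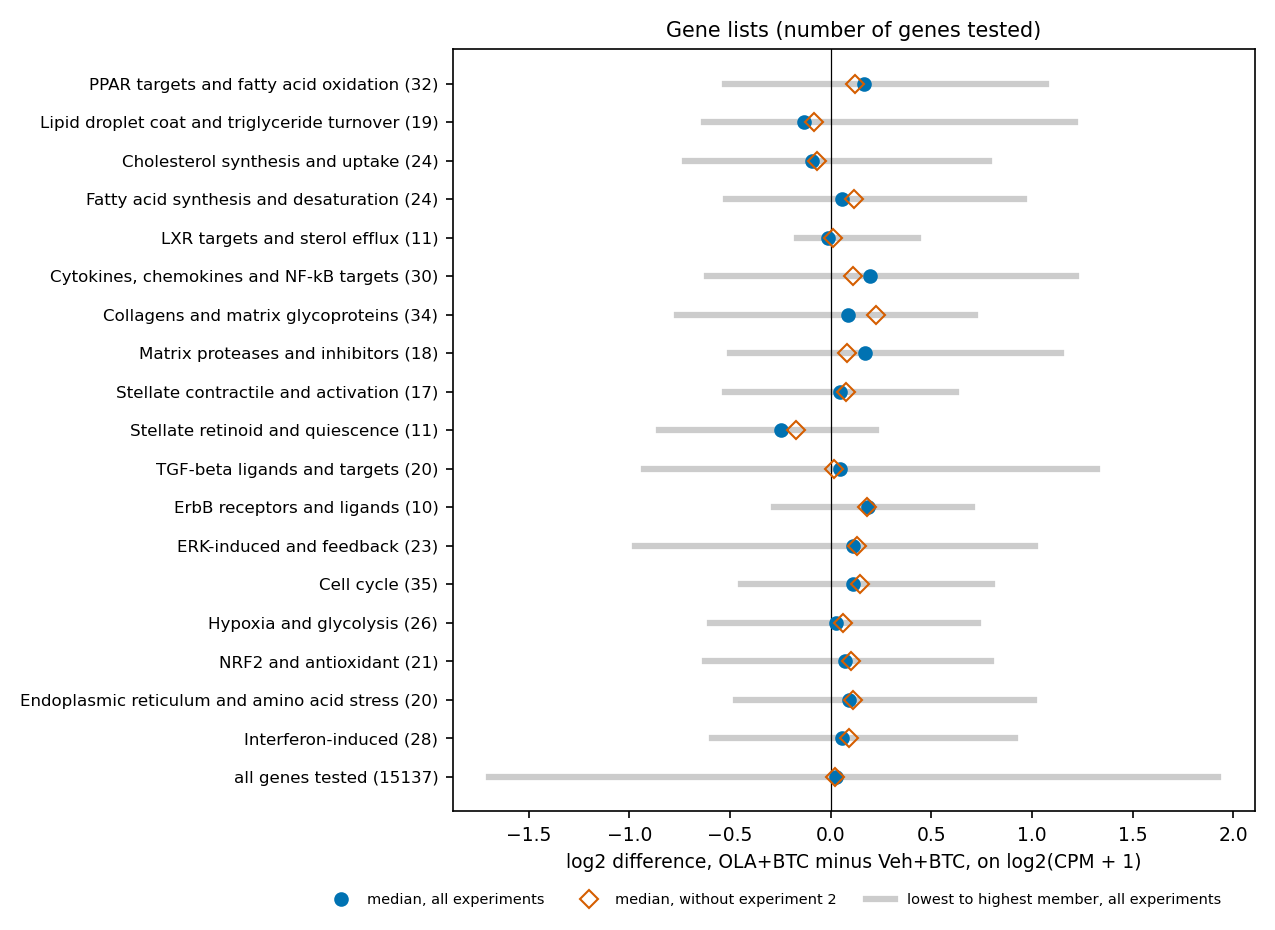
Median log2 difference, OLA+BTC minus Veh+BTC, of the tested members of 18 gene lists and of all 15137 genes, with all experiments (filled) and without experiment 2 (open), and the lowest to highest member as a bar. Medians lie between −0.25 and 0.19 with all experiments, against 0.03 for all genes.

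Stellate activation and matrix genes were described by the same measure. ACTA2, the smooth muscle actin of myofibroblasts, was at 35.0, 34.6, 130, 40.4 and 108 CPM in OLA+BTC, against 49.0, 36.3, 101, 39.3 and 82.2 CPM in Veh+BTC, following experiment rather than treatment. Its log2 difference was 0.05 (95% interval −0.63 to 0.72). COL1A1 was at 794, 1044, 617, 315 and 2257 CPM in OLA+BTC, against 956, 1500, 758, 360 and 1168 CPM in Veh+BTC, a difference of −0.07 (−0.53 to 0.39) that changed sign without experiment 2 (0.05) and after the GC correction (0.18). COL1A2 and COL3A1 differed by 0.51 (−0.35 to 1.37) and 0.07 (−0.48 to 0.62), and the matrix protease inhibitor TIMP1 by 0.07 (−0.39 to 0.52). MYL9, a myosin light chain, was lower in 5 of 5 experiments (−0.53) and the intermediate filament VIM higher in 5 of 5 (0.62). The cytokine TGFB1 was at 8.24 to 35.3 CPM in OLA+BTC and 9.77 to 54.6 CPM in Veh+BTC (−0.54, 95% interval −1.22 to 0.14). TGFB2 was lower in 5 of 5, at 1.13 to 26.6 CPM in OLA+BTC and 1.90 to 42.3 CPM in Veh+BTC (−0.93). CCN1, a matricellular protein induced by growth factors and YAP, ran from 37.9 to 2374 CPM in OLA+BTC and 21.4 to 1170 CPM in Veh+BTC, so its difference of 1.32 had an SE of 0.73. Medians were 0.09 for 34 collagens and glycoproteins, 0.17 for 18 proteases and inhibitors, 0.05 for 17 contractile and activation genes, −0.25 for 11 retinoid and quiescence genes and 0.05 for 20 TGF-beta genes. In none of these lists did a gene pass the test. At an unadjusted p under 0.05, 2, 0, 0, 0 and 2 were higher and 1, 0, 0, 1 and 1 lower, against 4.14% and 2.75% of all genes. Without experiment 2, 3, 0, 2, 0 and 2 were higher and 1, 0, 1, 0 and 1 lower, against 5.19% and 3.79% of all genes.

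Genes of the BTC pathway were near level or split. EGFR was at 42.5, 49.4, 14.8, 12.9 and 17.8 CPM in OLA+BTC, against 31.4, 49.4, 18.6, 15.2 and 16.8 CPM in Veh+BTC (−0.01, 95% interval −0.52 to 0.51), and ERBB2, its dimer partner, differed by −0.07 (−0.53 to 0.38). DUSP1, a phosphatase induced by ERK and stress kinases, and the survival gene MCL1 had differences of 1.01 and 0.74, while SPRY1, a feedback inhibitor, had −0.97. Of 10 tested ErbB receptors and ligands 0 were past an unadjusted p of 0.05 and the median was 0.18. By the same threshold 4 of 23 ERK-induced genes were higher and 1 lower, against 4.14% and 2.75% of all genes, with a median of 0.11. Without experiment 2, 2 of the 23 were higher and 1 lower, against 5.19% and 3.79% of all genes. MKI67, a proliferation marker, was at 48.9 to 342 CPM in OLA+BTC and 52.6 to 349 CPM in Veh+BTC (−0.11, 95% interval −0.56 to 0.34). CCNB2, a mitotic cyclin, and MCM5, of the replicative helicase, had differences of 0.72 and −0.45, and the 35 cell cycle genes a median of 0.11. CXCL8, the neutrophil chemokine, was at 16.1, 14.8, 1.12, 16.7 and 4.46 CPM in OLA+BTC, against 6.27, 1.29, 1.77, 13.6 and 4.98 CPM in Veh+BTC (0.76, 95% interval −0.56 to 2.07, and 0.25 without experiment 2). RELB, an NF-kB subunit, was lower in 4 of 5 (−0.61), and the 30 cytokine and NF-kB genes had a median of 0.19. The glycolytic genes LDHA, HK2 and PFKFB3 were higher in 5 of 5, at 0.61, 0.73 and 0.64, and GAPDH lower in 5 of 5, at −0.60, in a list of 26 with a median of 0.02. The 21 NRF2, 20 endoplasmic reticulum stress and 28 interferon-induced genes had medians of 0.07, 0.09 and 0.06. None of these lists held a gene that passed.

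The genes with the smallest p included TMEM97, described above, and genes of other functions. Higher in OLA+BTC in 5 of 5 experiments were MTRES1, a mitochondrial transcription rescue factor, at 12.0 to 38.0 CPM and 4.73 to 23.2 CPM in Veh+BTC (0.98 ± 0.26 SE), and EEF1AKMT2, a lysine methyltransferase of elongation factor 1A (1.15 ± 0.33). So were SRF, the serum response factor, at 218 to 511 CPM and 110 to 337 CPM in Veh+BTC (0.75 ± 0.22), and SEC11A, a signal peptidase subunit, at 608 to 817 CPM and 306 to 636 CPM in Veh+BTC (0.58 ± 0.17). SEL1L3, the decapping enzyme DCPS and SNRPG, a core protein of spliceosomal particles, had differences of 0.81, 0.69 and 1.27. Lower in 5 of 5 were H4C3, a replication-dependent histone gene, at 7.30 to 244 CPM and 62.3 to 2181 CPM in Veh+BTC (−1.70 ± 0.48 SE), RNU4ATAC, a minor spliceosome RNA (−1.55 ± 0.43), and MT-ATP8 of the mitochondrial genome (−1.28 ± 0.35). Reads of H4C3 may be shared with other histone H4 copies, and MT-ATP8 overlaps MT-ATP6. MOB3A, PRKD2 and LRRC45 had differences of −0.80, −0.70 and −0.95. The adjusted p of each was 0.695 (limma). H4C3 moved with the histone sum described above, which was highest in Veh+BTC of experiment 3, and MT-ATP8 with the mitochondrial share, and the part these library features had in the differences was not tested.

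Without BTC, OLA+Veh and Veh+Veh libraries also gave no called gene, 0 of 15137 (0.0%), with 468 (3.09%) at an unadjusted p under 0.05 and 0 calls in edgeR and DESeq2. ANGPTL4 was at 18.8, 15.6, 4.54, 20.3 and 16.8 CPM in OLA+Veh, against 6.53, 1.37, 2.33, 13.5 and 7.70 CPM in Veh+Veh. It was higher in 5 of 5 experiments here too, with a log2 difference of 1.3 (95% interval 0.38 to 2.23) and an adjusted p of 1 (limma). Of all genes, 14 (0.0925%) were higher in all 5 experiments in both comparisons and 13 (0.0859%) lower in both, and ANGPTL4 was among the 14. PLIN2 was at 141, 175, 76.8, 143 and 143 CPM in OLA+Veh, against 105, 92.8, 128, 131 and 162 CPM in Veh+Veh, higher in experiments 1, 2 and 4 only, with a log2 difference of 0.11 (−0.46 to 0.68). The test of whether the oleic acid difference itself differed with BTC gave 0 calls in limma (1279 genes, 8.45%, at an unadjusted p under 0.05) and in edgeR, and 1 in DESeq2. Over all experiments, that difference of differences was 0.73 (95% interval −0.08 to 1.54) for PLIN2, −0.23 (−1.54 to 1.07) for ANGPTL4 and 1.07 (0.32 to 1.82) for ACAA2. Their adjusted p were 0.597, 0.932 and 0.584 (limma). Leaving out experiment 2, limma gave 0 calls for the difference of differences (1667 genes, 11.0%, at an unadjusted p under 0.05), 784 with library weights and 242 without Veh+BTC of experiment 4.

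Set against DHA+BTC, cells given oleic acid differed in 261 of 15137 genes (1.72%), 169 (1.12%) higher and 92 (0.608%) lower in OLA+BTC (limma, adjusted p under 0.05), and 310 (2.05%) without experiment 2. OLA+BTC libraries held 3236415 to 5338852 reads and 16252 to 18511 detected genes, and DHA+BTC libraries 1245182 to 3708438 reads and 12907 to 17192 detected genes, fewest in experiments 4 and 5. The part of depth in these calls was not tested. Docosahexaenoic acid (DHA), an omega-3 fatty acid of 22 carbons with 6 double bonds, was given at the same 50 µM and for the same times, and this was the only pair of fatty acids compared here. ANGPTL4 was at 12.3, 30.9, 4.87, 16.5 and 22.7 CPM in OLA+BTC, against 83.7, 272, 110, 143 and 620 CPM in DHA+BTC, with no overlap. The log2 difference was −3.55 ± 0.45 (SE, adjusted p = 0.000121, limma). CXCL8 was lower in OLA+BTC by the same measure (−3.58, adjusted p = 0.0027), as was TIMP1 (−1.04, adjusted p = 0.0126), while CXCL8 was nearly level in experiment 2, at 14.8 CPM in OLA+BTC and 15.1 CPM in DHA+BTC. Higher in OLA+BTC were the desaturase SCD (1.23), mevalonate kinase MVK (1.18), the elongase ELOVL2 (1.17), HMGCS1 (1.04), the thiolase ACAT2 (0.79), acetyl-CoA carboxylase ACACA (0.72) and ACTA2 (1.27), with adjusted p between 0.0179 and 0.042. PLIN2 was at 98.5 to 475 CPM in OLA+BTC and 157 to 544 CPM in DHA+BTC, and its difference of −0.86 (95% interval −1.43 to −0.29) passed without experiment 2 (−1.14, adjusted p = 0.0172) and without its OLA+BTC library alone (−1.20, adjusted p = 0.0095). FADS1 differed by 0.12 (−0.20 to 0.44, adjusted p = 0.743), which bounds the difference between the fatty acids without showing that they act alike.

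By list, 13 of 30 cytokine and NF-kB genes were lower and 1 higher in OLA+BTC than in DHA+BTC, and 6 of 26 hypoxia and glycolysis genes and 5 of 18 matrix proteases and inhibitors were lower. Higher in OLA+BTC were 6 of 35 cell cycle, 4 of 24 cholesterol, 3 of 24 fatty acid synthesis and 3 of 17 contractile genes. Of all genes, 0.608% were lower and 1.12% higher. Without experiment 2 the lower calls were 14, 6 and 6 in the first 3 lists, with 1 cytokine gene and 1 protease or inhibitor gene higher, and the higher calls 9, 7, 3 and 4 in the other 4. Of all genes, 0.667% were then lower and 1.38% higher. Median log2 differences were −1.03, −0.49 and −0.35 for the first 3 lists and 0.67, 0.60, 0.45 and 0.62 for the other 4, against 0.18 for all genes. That background of 0.18 was smaller under other scalings, at 0.06 after scaling by the median of ratios and 0.01 after quantile normalization. The split of calls turned with it, to 81 higher and 126 lower with the first and 85 higher and 124 lower with the second. The 7 medians kept their sign under both and in edgeR and DESeq2. In edgeR, cytokine genes still had 13 lower calls, while cell cycle and cholesterol genes had 1 higher call each. Over all 15137 genes edgeR called 116 lower and 49 higher.

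The count of genes between the fatty acids depended on the fit, at 1 gene with no replicate block, 5 with only these 2 groups in the fit and 165 in edgeR (49 higher, 116 lower). It was 34 without experiment 3, 36 without experiment 4 and 47 without experiment 5. Leaving out 1 OLA+BTC library gave 93, 71 and 75 for experiments 3, 4 and 5. Of the 11 genes followed through 28 alternatives, ANGPTL4 alone passed under every one, and no gene changed direction.

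The OLA+BTC minus Veh+BTC and DHA+BTC minus Veh+BTC contrasts share the Veh+BTC libraries, so their values are only set side by side. For the lipid genes PLIN2, ANGPTL4, CPT1A and HILPDA, OLA+BTC minus Veh+BTC gave 0.84, 1.07, 0.35 and 0.17 on the log2 scale. DHA+BTC minus Veh+BTC gave 1.70, 4.62, 0.78 and 0.85. Without experiment 2, OLA+BTC minus Veh+BTC was 0.43 for PLIN2 and 0.36 for ANGPTL4, and the DHA+BTC values without it are not given here.

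**Figure D4:**
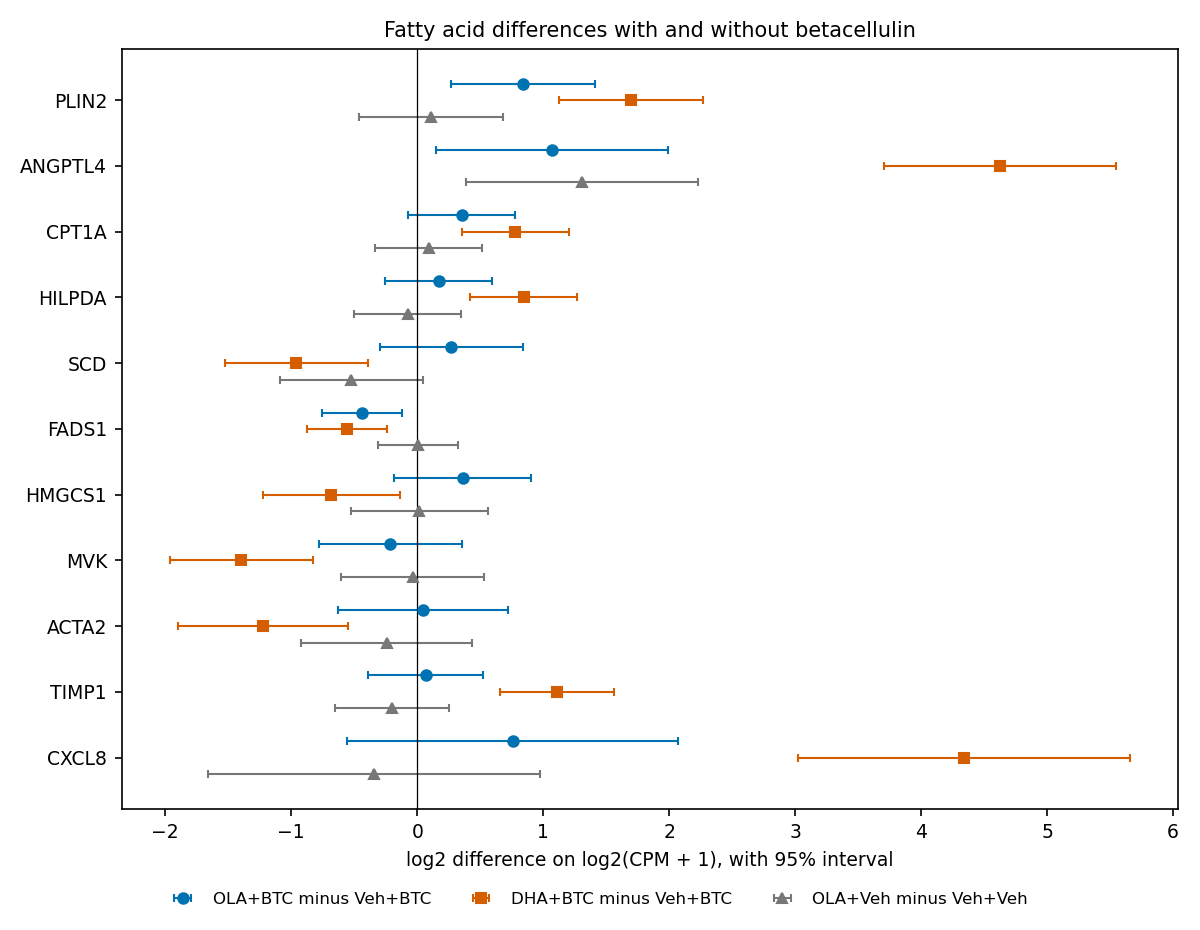
Log2 difference with its 95% interval for 11 genes, OLA+BTC minus Veh+BTC (circles), DHA+BTC minus Veh+BTC (squares, same Veh+BTC libraries) and OLA+Veh minus Veh+Veh (triangles). All experiments are included. Every OLA+BTC interval but those of PLIN2, ANGPTL4 and FADS1 holds 0, and ANGPTL4 stands at 1.07 for oleic acid and 4.62 for DHA. Without experiment 2, OLA+BTC minus Veh+BTC was 0.43 for PLIN2 and 0.36 for ANGPTL4, and both intervals held 0.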

How the data were processed

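RNA was measured by 3′ end sequencing (QuantSeq 3′ FWD) in 30 libraries of LX2 cells. The submitters' processing notes name STAR 2.5.3a and HTSeq 0.6.0; genome build, annotation and strand setting are not given in the sources used here. The authors deposited CPM values, counts scaled to 1000000 per library, for 61597 genes, and 0 sample columns were left unmapped. Every value came out as whole reads, 100% within 0.01, which gave 1245182 to 9490142 reads per library. A share or level of 0 therefore has a floor of 3 reads, and floors cover counting error only.

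Differences were fitted with limma 3.58.1 (trend, R 4.3.3) on log2(CPM + 1). A gene was tested if 5 libraries or more reached 1 CPM, which left 15137 genes. All 30 libraries entered, with group and experiment as terms, and p-values were Benjamini-Hochberg adjusted over all genes (threshold 0.05). This scale understates changes of low genes. edgeR 4.0.16 and DESeq2 1.42.0 on the recovered reads were alternatives, with other filters, scalings, pseudocounts, library weights, left-out libraries and a GC correction. Only the main limma fit of OLA+BTC against Veh+BTC was tried on simulated data. The planted changes were larger than those named here for that comparison, so smaller changes were not tried. Experiment numbers pair the libraries, since OLA+BTC and Veh+BTC deviations from their group means correlated at 0.456 to 0.682 in all 5 same-numbered pairs. Library measures were compared with an exact sign-flip permutation test over experiments, two-sided and adjusted over 18 measures.

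Named genes were lipid, matrix, receptor and cytokine genes listed by role, members of the lipid lists on which a result turns, up to 4 genes per list with the smallest p without experiment 2, the 10 smallest p per direction (mean of at least 5 CPM, direction shared by all but at most 1 experiment), and the 15 genes highest in OLA+BTC of experiment 2 relative to the other 9. Where genes are called, the 15 largest changes per direction also qualify; for the fatty acid comparison, list members were taken. The comparison, its members and the 30 gene lists (18 functional, 12 of markers) were chosen with earlier results of these data known. Some genes are not reported here.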

Additional observations from a re-analysis of the deposited data

Results flagged for a closer look

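Of 179 groups of 5 values examined, 14 (7.82%) held a library far from the other 4, where chance gives about 1 in 20. The groups share libraries, so that rate is only a rough guide and the excess was not tested. Of the 14, 4 fell in OLA+BTC of experiment 2. That library was known beforehand to hold RNA of other cell types, so its 4 flags only describe it. There, leukocyte markers summed to 1893 CPM, against 86.7 to 146 CPM in the other 4 OLA+BTC libraries, erythroid and platelet markers to 1873 CPM, against 25.7 to 114 CPM, and intestinal markers to 72.6 CPM, against 1.13 to 19.4 CPM. FABP4 was at 255 CPM in the same library and at 5.86 to 16.3 CPM in the other 4. In Veh+BTC of experiment 3, replication-dependent histone genes summed to 2578 CPM, against 203 to 579 CPM in the other 4 Veh+BTC libraries. Its erythroid and platelet markers, at 125 CPM, and endothelial markers, at 75.7 CPM, also lay above the others, which held 33.8 to 52.7 CPM and 35.9 to 44.0 CPM. OLA+BTC of experiment 3 held 714 CPM of histone genes, 114 CPM of erythroid and 45.1 CPM of endothelial markers. Veh+BTC of experiment 2 had 18240 genes detected, against 16330 to 16860 in the other 4, and OLA+BTC of that experiment had 18511. In the same Veh+BTC library PLIN3 was lowest at 559 CPM, against 1144 to 1218 CPM, and CCNB2 highest at 152 CPM, against 42.1 to 60.5 CPM.

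Single genes made up the rest. G0S2 was at 119 CPM in Veh+BTC of experiment 4 and at 4.56 to 12.0 CPM in the other 4 Veh+BTC libraries. OLA+BTC of experiment 4 was likewise the highest of its group for G0S2, as given above. Among OLA+BTC libraries, MVD was at 193 CPM in experiment 3 and 73.8 to 94.96 CPM in the others, ERBB2 at 46.0 CPM in experiment 5 and 35.5 to 36.7 CPM in the others, and SPRY1 at 8.30 CPM in experiment 1 and 0.749 to 1.54 CPM in the others.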

How the results depend on the processing

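OLA+BTC against Veh+BTC gave 0 calls over all experiments under each alternative run, the fit with no replicate block included, and with each library or experiment left out (0 to 0). Without experiment 2 it gave 2 calls with no filter, 1 in DESeq2 and 0 to 354 when a further library or experiment was left out. The difference of differences gave 1 call in DESeq2, and without experiment 2, 1 with no filter, 1 in DESeq2, 784 with library weights and 0 to 242 in the left-out fits. OLA+Veh against Veh+Veh without experiment 2 gave 1 call with no filter. OLA+BTC against DHA+BTC, with 261 calls, gave 95 with no filter, 165 in edgeR, 1 with no replicate block, 5 with only the groups compared, 78 without experiments 2 and 3, and 34 to 323 in the left-out fits. Without experiment 2, its 310 calls became 142, 163, 5 and 32 under the first 4 of these and 53 to 341 in the left-out fits. The cause of these shifts was not tested, and the left-out fits also held fewer samples. DHA+BTC, OLA+Veh and Veh+Veh libraries were left out only with their whole experiment, and a library missing from a pair leaves its partner to the pooled spread. Of 64 named genes 54 kept their direction under the 28 alternatives (PNPLA3 and ACSL5 have no value under the 5 CPM filter), 10 changed it under at least 1, and 0 passed under any. Left-out fits ranged from −0.52 to 0.77 for CD36, −0.15 to 1.32 for FABP4, −0.0036 to 0.55 for SCD, −0.34 to 0.24 for FADS2, −0.17 to 0.18 for ACTA2, −0.32 to 0.11 for COL1A1, −0.18 to 0.26 for COL3A1, −0.049 to 0.23 for TIMP1, −0.17 to 0.17 for EGFR and −0.20 to 0.10 for ERBB2. Without experiments 2 and 3 the difference was −0.56 for CD36, −0.23 for FABP4, −0.016 for ACTA2, 0.16 for COL1A1, 0.093 for EGFR and 0.10 for ERBB2. FADS2 was at −0.068 in edgeR, −0.068 in DESeq2 and −0.20 with library weights, COL3A1 at −0.093 with library weights, ACTA2 at −0.015 with quantile normalization and EGFR at 0.0038 with a pseudocount of 5. The GC correction gave 0.18 for COL1A1, −0.030 for COL3A1 and 0.12 for ERBB2. Of the library measures, 7 changed sign with an experiment left out. Their OLA+BTC minus Veh+BTC differences ranged from −343680 to 692200 for total reads, −72.8 to 252 for genes detected, −189 to 366 CPM for stellate, −25.2 to 452 CPM for leukocyte, −3.91 to 460.5 CPM for erythroid, −5.27 to 11.9 CPM for endothelial and −4.92 to 0.43 CPM for melanocytic markers. The GC correction and the fit without experiments 2 and 3 were chosen after seeing the data.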
